A study of Mus musculus with 2 samples.

Results

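The 9 genes described here are 7 that microglia are known to express and 2 ligands that bind receptors among those 7. The microglial genes were Cx3cr1, Csf1r, C1qa, C1qb, C1qc, P2ry12 and Tmem119, and the ligands were Cx3cl1 and Il34. They were found by exact gene symbol among 55450 annotated genes, and the 9 symbols matched 9 genes with 31 annotated transcripts. RNA was extracted from tissue labelled as layer of hippocampus, of the mouse strain B6CASTF1/J, female, at 25 days of age. The strain is the first-generation offspring of a cross between C57BL/6 and CAST. Which layer was taken is not named in the labels. No treatment is named in the labels. There was 1 group with 2 libraries, each made from 300 ng of ribosome-depleted total RNA with ERCC spike-ins. The labels give the libraries separate biosamples and a shared donor entry, so the spread between them may be technical in part. With a single group there was no test between conditions. Levels are in TPM, a level per length of transcript scaled to the same total in every library, as mean ± SD over the 2 libraries (n = 2). In tissue RNA, fewer cells of a type and less RNA per cell cannot be told apart.

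Microglia are the resident macrophages of the brain and depend for survival on the receptor tyrosine kinase encoded by Csf1r, which binds the cytokines IL-34 and CSF1. Neurons make IL-34 and also fractalkine, the product of Cx3cl1, a chemokine tethered to the neuronal membrane whose receptor CX3CR1 sits on microglia. C1qa, C1qb and C1qc encode the chains of C1q, the recognition molecule of the classical complement pathway, which in young mice is known to tag synapses for removal by microglia. P2RY12 is an ADP receptor that steers microglial processes, and TMEM119 is a membrane protein used to tell microglia from other macrophages.

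The main gene tables held 34919989 and 41206890 expected counts in replicates 1 and 2, and the 9 genes together took 0.0650% and 0.0677% of them. The tissue label was read against listed markers. The neuronal genes Snap25, Slc17a7 and Syt1 were at 796 ± 28.7, 639 ± 12.6 and 400.4 ± 25.3 TPM. Oligodendrocyte, astrocyte and endothelial lists of 5 genes each summed to 2060 ± 33.9, 493 ± 3.44 and 58.3 ± 6.74 TPM. Each of those genes and of the neuronal list was above 1 TPM in both libraries.

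The 2 ligands differed widely in level. Cx3cl1 (ENSMUSG00000031778.13, mm10 chromosome 8, 94772009 to 94782427) had 199.97 TPM in replicate 1 and 198.9 in replicate 2, from 14870 and 18593 expected counts. It stood at rank 281 of 21938 nuclear protein-coding genes by mean TPM. The next member, Csf1r (ENSMUSG00000024621.16, chromosome 18, 61100598 to 61132149), had 33.3 and 33.8 TPM from 2786 and 3309 counts. Il34 (ENSMUSG00000031750.15, chromosome 8, 110741829 to 110805924) had 33.4 and 31.3 TPM from 905 and 1102 counts. The libraries of Csf1r and Il34 overlapped, and their means of 33.6 ± 0.346 and 32.3 ± 1.46 differed by less than the SD of Il34.

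The C1q genes and P2ry12 followed. C1qb (ENSMUSG00000036905.8, chromosome 4, 136880129 to 136886187) had 20.6 and 23.1 TPM, from 489 and 687 counts. C1qa (ENSMUSG00000036887.5, chromosome 4, 136895917 to 136898803) had 21.2 and 20.8 TPM, from 480 and 589 counts. P2ry12 (ENSMUSG00000036353.13, chromosome 3, 59216272 to 59262871) had 21.6 and 18.6 TPM, from 885 and 1010 counts. These 3 genes could not be ordered, since the libraries of each neighbour overlapped. C1qc (ENSMUSG00000036896.5, chromosome 4, 136889804 to 136893065) had 18.3 TPM in both libraries, from 484 and 606 counts. It was below P2ry12 in both, by 1.80 TPM in the mean, less than the SD of 2.10 of P2ry12.

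Cx3cr1 and Tmem119 were the lowest members. Cx3cr1 (ENSMUSG00000052336.7, chromosome 9, 119901616 to 120069879) had 14.6 and 12.6 TPM from 1289 and 1385 counts. Tmem119 (ENSMUSG00000054675.5, chromosome 5, 113793729 to 113800516) had 9.66 and 9.69 TPM from 498 and 624 counts. Neither overlapped its neighbour in the order, and every member reached more than 9 TPM in both libraries. The members therefore spanned ranks 281 to 8025 of the 21938 coding genes.

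**Figure D1:**
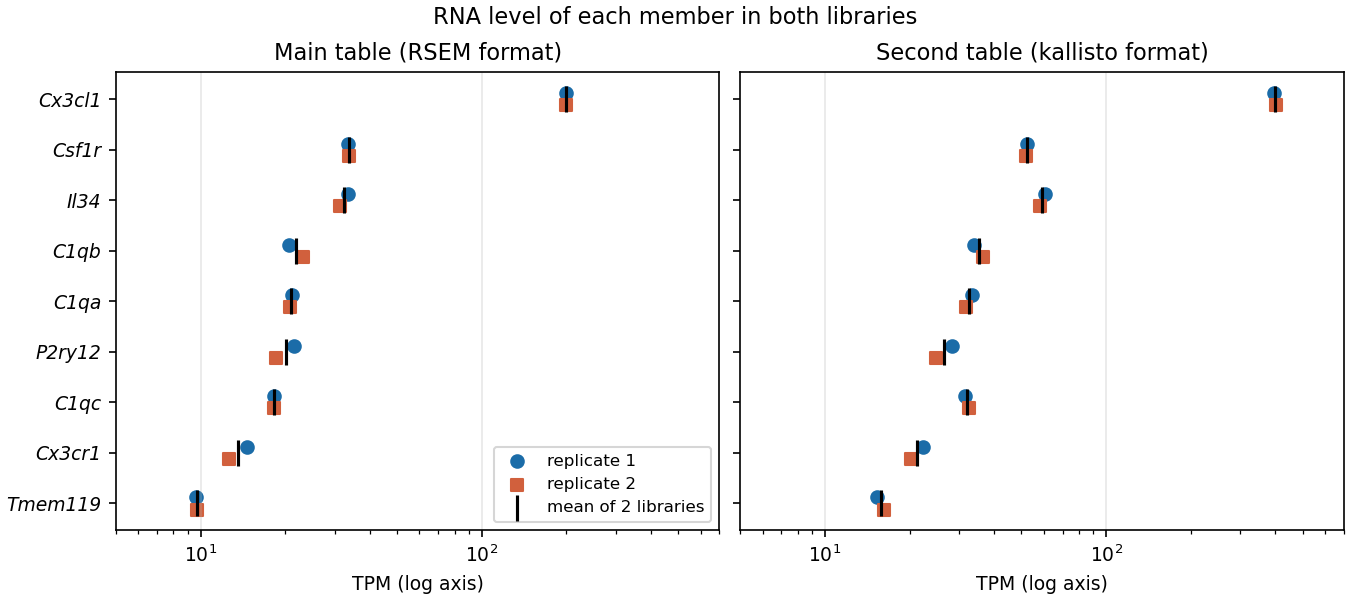
TPM of the 9 genes on a log axis in the main table (left) and in the second deposited transcript table (right), with circles for replicate 1, squares for replicate 2 and bars for their mean. Cx3cl1 lies near 199 TPM on the left and near 399 on the right, above the 8 other genes in both panels, and Tmem119 is lowest in both.

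A second deposited quantification, made directly from reads, gave the same gene at the top and at the bottom. There Cx3cl1 had 395 and 403 TPM and Tmem119 15.3 and 16.2. All 9 values were higher than in the main table. Nuclear protein-coding genes held 43.3% and 42.0% of TPM in the main tables against 73.5% and 74.0% in the second. Il34, at 60.7 and 58.1 TPM, was above Csf1r, at 52.4 and 52.1, in both libraries of the second table, whereas in the main table their libraries overlapped. P2ry12, at 28.4 and 24.7, was below each C1q gene there, while in the main table it overlapped C1qa and C1qb.

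The fractalkine pair was strongly weighted to the ligand. The TPM of Cx3cl1 was 13.7 times that of Cx3cr1 in replicate 1 and 15.8 times in replicate 2, a mean of 14.7 ± 1.498. In the second quantification the ratio was 17.7 and 19.9. The excess of ligand RNA over receptor RNA was thus present in both libraries and both tables, and the ratio was 12.5 ± 1.34 on expected counts that are not divided by length. The chemokine is named for a motif of a pair of cysteines with 3 residues between them. The coding sequence of Cx3cl1-201, the leading Cx3cl1 transcript, held 1 in-frame match to that motif, at codons 32 to 36 of 395 (stop codon included). Codons 22 to 46 are printed because they carry the motif that defines this ligand, with both cysteine codons in capitals. They lie on the plus strand of mm10 between chr8:94772328-94778095, across an exon junction.
Cx3cl1 codons 22 to 46: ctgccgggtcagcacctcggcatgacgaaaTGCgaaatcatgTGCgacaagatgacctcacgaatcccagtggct

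Genes that act on fractalkine were lower than the ligand itself. Adam10, a protease known to shed fractalkine from the membrane, had 26.7 and 26.5 TPM. Adam17, a second such protease, had 7.46 and 8.93 TPM. Cx3cl1 was 7.50 and 7.52 times the level of Adam10 in replicates 1 and 2, and 26.8 and 22.3 times that of Adam17.

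The Il34 and Csf1r pair was near parity on whole-gene TPM, with a ratio of 1.00 in replicate 1 and 0.926 in replicate 2 (mean 0.963 ± 0.0533). In the second quantification it was 1.16 and 1.12. A short noncoding transcript held much of the Il34 TPM, and less of its counts. Of Il34 TPM, 46.1% and 41.1% belonged to Il34-205, a processed transcript of 675 bases at the 3′ end of the gene (chromosome 8, 110741829 to 110742698). In expected counts, not divided by length, it held 213 of 905 and 223 of 1102. Of those 675 bases 664 lie in exons of the coding transcript Il34-201, so reads from them cannot be assigned to either with certainty. Il34-201 itself (chromosome 8, 110741840 to 110805903, 7 exons) held 50.2% and 55.6%. Counting only transcripts that carry the full principal coding sequence, a measure chosen after the values were seen, Il34 stood at 0.564 and 0.618 times Csf1r. On the same measure in the second quantification the ratio was 0.691 and 0.741. Both full-coding ratios were below 1 in both libraries. On expected counts, not divided by length, Il34 was at 0.325 and 0.333 times Csf1r.

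Other genes of the CSF1 receptor pathway were lower or shared with other cells. Csf1, the other ligand of the receptor, had 7.18 and 6.93 TPM, so whole-gene Il34 TPM was 4.65 and 4.52 times as high. The full-coding transcript Il34-201 alone had 16.8 and 17.4 TPM, a smaller excess. On expected counts, not divided by length, Il34 had 905 and 1102 against 631 and 713 for Csf1. Ptprz1, whose product is also known as a receptor of IL-34 and which astrocytes and oligodendrocyte precursors express, had 61.0 and 54.2 TPM. It was 1.83 and 1.603 times as high as Csf1r.

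**Figure D2:**
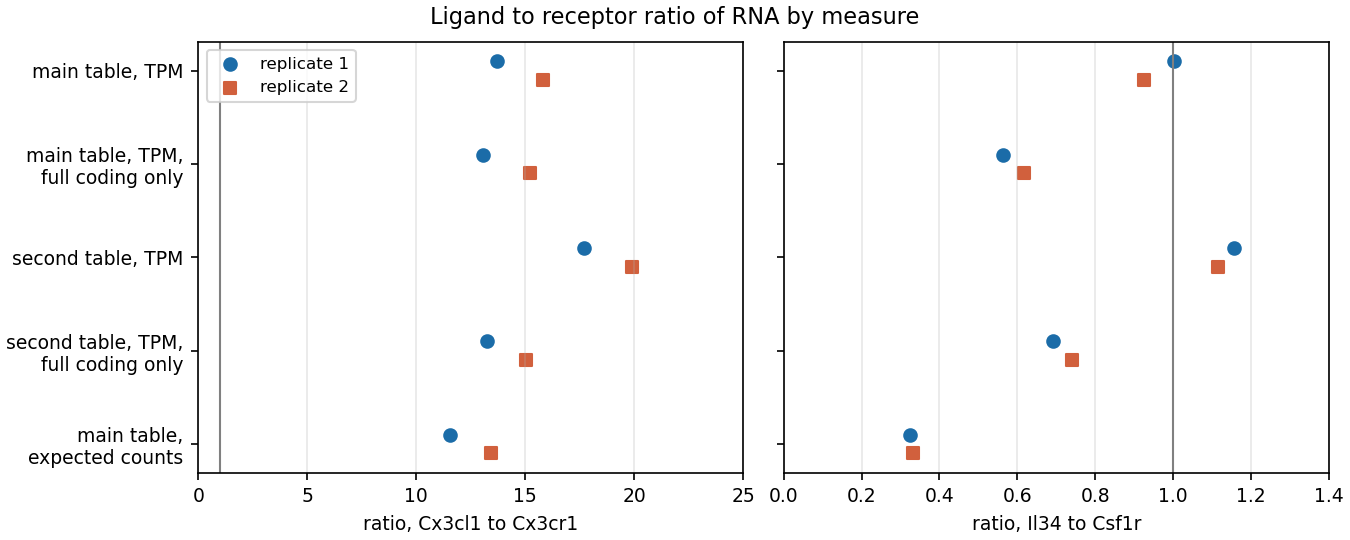
Ratio of ligand to receptor RNA for Cx3cl1 to Cx3cr1 (left) and Il34 to Csf1r (right), with 1 row for each measure, a circle for replicate 1, a square for replicate 2 and a grey line at 1. The left ratios lie between 11.5 and 19.9, and the right ratios run from 0.325 on counts to 1.16 on TPM of the second table.

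The C1q chains stood close to each other. C1q is built from equal numbers of its A, B and C chains, whose genes lie side by side on the minus strand of chromosome 4. The ratio of C1qa to C1qb TPM was 1.03 in replicate 1 and 0.901 in replicate 2, and that of C1qc to C1qb was 0.889 and 0.791. C1qa to C1qb therefore lay on both sides of 1, while C1qc was lower than C1qb in TPM in both libraries. On expected counts, not divided by length, C1qc to C1qb was 0.990 and 0.882, and C1qa to C1qb 0.982 and 0.857. No counting interval was computed for ratios between chains. In the second quantification C1qc to C1qb was 0.925 and 0.888, and C1qa to C1qb 0.98 and 0.868. C1qa to C1qc was 1.16 and 1.14 in the main table but 1.06 and 0.977 in the second. In TPM, C1qa was thus above C1qc in both libraries of the main table, and the libraries of the second lay on both sides of 1. On expected counts of the main table C1qa to C1qc was 0.992 and 0.972, so the order of these genes depended on the measure.

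Each C1q chain has a collagen-like stalk in which glycine recurs at a spacing of 3 residues. The longest in-frame run of glycine codons (GGN, in capitals) at that spacing is printed for each chain to show the feature that joins the chains. The run of C1qa-201 held 16 glycine codons (codons 62 to 109 of the coding sequence, chr4:136896565-136896708, minus strand, mm10). The run of C1qb-201 held 29 (codons 31 to 117, between chr4:136880700-136882217, minus strand, across an exon junction). The run of C1qc-201 held 16 (codons 68 to 115, chr4:136890439-136890582, minus strand). An interruption of the spacing ends a run, so these lengths are not the lengths of the whole stalks.
C1qa: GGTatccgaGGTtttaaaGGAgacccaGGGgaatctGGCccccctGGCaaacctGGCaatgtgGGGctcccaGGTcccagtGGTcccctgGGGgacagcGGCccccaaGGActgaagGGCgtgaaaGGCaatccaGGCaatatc
C1qb: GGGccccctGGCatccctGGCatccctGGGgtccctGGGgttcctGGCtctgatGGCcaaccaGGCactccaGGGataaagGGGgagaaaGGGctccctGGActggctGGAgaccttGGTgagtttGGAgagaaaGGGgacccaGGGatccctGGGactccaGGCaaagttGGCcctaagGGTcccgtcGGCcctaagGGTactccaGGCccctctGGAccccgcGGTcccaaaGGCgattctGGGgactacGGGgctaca
C1qc: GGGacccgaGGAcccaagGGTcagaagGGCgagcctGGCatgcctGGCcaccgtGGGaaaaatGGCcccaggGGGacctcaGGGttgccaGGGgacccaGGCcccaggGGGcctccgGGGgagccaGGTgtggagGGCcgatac

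Promoter sequence from RefSeq (GRCm38.p6) was matched for 5 of the 9 genes. It was searched on both strands for GAGGAA, a core of the sites bound by PU.1, the transcription factor that governs macrophage genes. In the 250 bases before the start that RefSeq gives, C1qb and C1qc each held 1 match, Cx3cl1 held 2, and Cx3cr1 and P2ry12 held 0. Of 32851 promoters in the table, 23.3% held a match in the same window. A match is a stretch of letters only. The RefSeq start of C1qc differs from that of the annotation used for the counts, and its window reaches into the gene as given above. The window of C1qb, which lies outside that gene, is printed with the match in capitals (TTCCTC is the motif on the other strand), at chr4:136886201-136886450 on the minus strand.
C1qb promoter: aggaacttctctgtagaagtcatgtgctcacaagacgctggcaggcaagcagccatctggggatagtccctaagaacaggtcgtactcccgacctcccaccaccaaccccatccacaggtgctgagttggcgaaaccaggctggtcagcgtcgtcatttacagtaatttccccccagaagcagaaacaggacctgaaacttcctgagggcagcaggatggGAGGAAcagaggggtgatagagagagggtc

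Other complement RNA was uneven. Of 26 further complement genes, 13 reached 1 TPM in both libraries. C1ra and C1s1, which encode the proteases that join C1q in the C1 complex, had 0.31 and 0.27 TPM and 0.44 and 0.41 TPM in replicates 1 and 2. Their expected counts were 21.47 and 23 and 14.02 and 12.52. The listed genes C1rb and C1s2 had 3.53 and 0 counts and 7.98 and 7.48. Fractional counts mean that some reads were divided between genes, so these low levels are uncertain. C3, the central component of the cascade, had 0.33 and 0.4 TPM from 34 and 40 counts. C4b, which C1 cleaves and whose near-identical copy C4a makes its counts uncertain, had 8.11 and 6.69 TPM. The complement list was led by Sez6l2 (175 ± 3.95 TPM), Sez6l (90.7 ± 8.65), Sez6 (68.7 ± 3.99) and Susd4 (51.7 ± 1.58), which encode membrane proteins with complement control domains. Named for a C1q-like domain but not part of complement, C1ql3 and C1ql2 had 63.2 ± 4.70 and 35.4 ± 1.41 TPM, above each C1q chain gene in both libraries.

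Transcript assignment differed between the quantifications for some members. All 3 annotated transcripts of Cx3cr1 carry the same coding sequence of 1062 bases. The main table gave Cx3cr1-201 a share of 98.8 ± 0.170% of gene TPM. The second split the gene between Cx3cr1-201 (43.9 ± 0.525%), Cx3cr1-203 (35.1 ± 2.24%) and Cx3cr1-202 (21.003 ± 2.77%). The full-coding share of Cx3cr1 is therefore 100% by annotation in either table, whatever the split.

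P2ry12 showed the sharpest disagreement. The main table placed 72.9% and 78.5% in P2ry12-202 (chromosome 3, 59216360 to 59220259), a transcript that starts inside the gene and had 0% in both libraries of the second table. There P2ry12-201 (chromosome 3, 59216359 to 59262831), which starts at the far end, led with 56.0% and 88.2%. P2ry12-203 (59216272 to 59227581), which also starts inside the gene, had 28.8% and 11.8% in the second table and 6.15% and 5.45% in the main one. Both transcripts and 2 others share a coding sequence of 1041 bases. Full-coding transcripts held 82.5 ± 4.85% in the main table and 95.2 ± 6.81% in the second. The rest was P2ry12-205, a fragment of 619 bases with an open 3′ end, at 20.98% and 14.1% in the main table. In the second table P2ry12-205 had 9.62% in replicate 1 and almost none in replicate 2. The gene lies inside Med12l on the opposite strand, and 9 bases of P2ry12-204 overlap Med12l exons.

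Csf1r-201 led in both quantifications, at 80.6 ± 3.11% in the main table and 85.7 ± 0.615% in the second. With Csf1r-202, which has the same coding sequence of 2931 bases, full-coding transcripts held 86.3 ± 4.16% and 87.6 ± 0.214%. Csf1r-202 shares 873 of its 4701 bases with exons of Hmgxb3 on the opposite strand. The remainder went to short 5′ fragments, mainly Csf1r-205 in the main table (8.98% and 15.1%) and Csf1r-203 in the second (9.96% and 7.80%). For Cx3cl1 the main table gave Cx3cl1-201 96.0 ± 0.516%, and the second gave it 75.2 ± 0.584%. The difference was mostly assigned to Cx3cl1-203, a transcript annotated for nonsense-mediated decay, at 20.98% and 21.6% in the second table and 0% in the main one. Of its 780 bases 694 lie in exons of Cx3cl1-201, so reads from them cannot be assigned to either with certainty. When full-coding transcripts alone were counted, the ratio of Cx3cl1 to Cx3cr1 was 14.1 ± 1.51 in the main table and 14.1 ± 1.27 in the second.

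C1qa and C1qb have 1 annotated transcript each. Tmem119 had 100% of its TPM in Tmem119-201 in both tables, with Tmem119-202 listed at 0. C1qc-201 held 99.2 ± 0.509% and 99.5 ± 0.288% in the main and second tables.

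**Figure D3:**
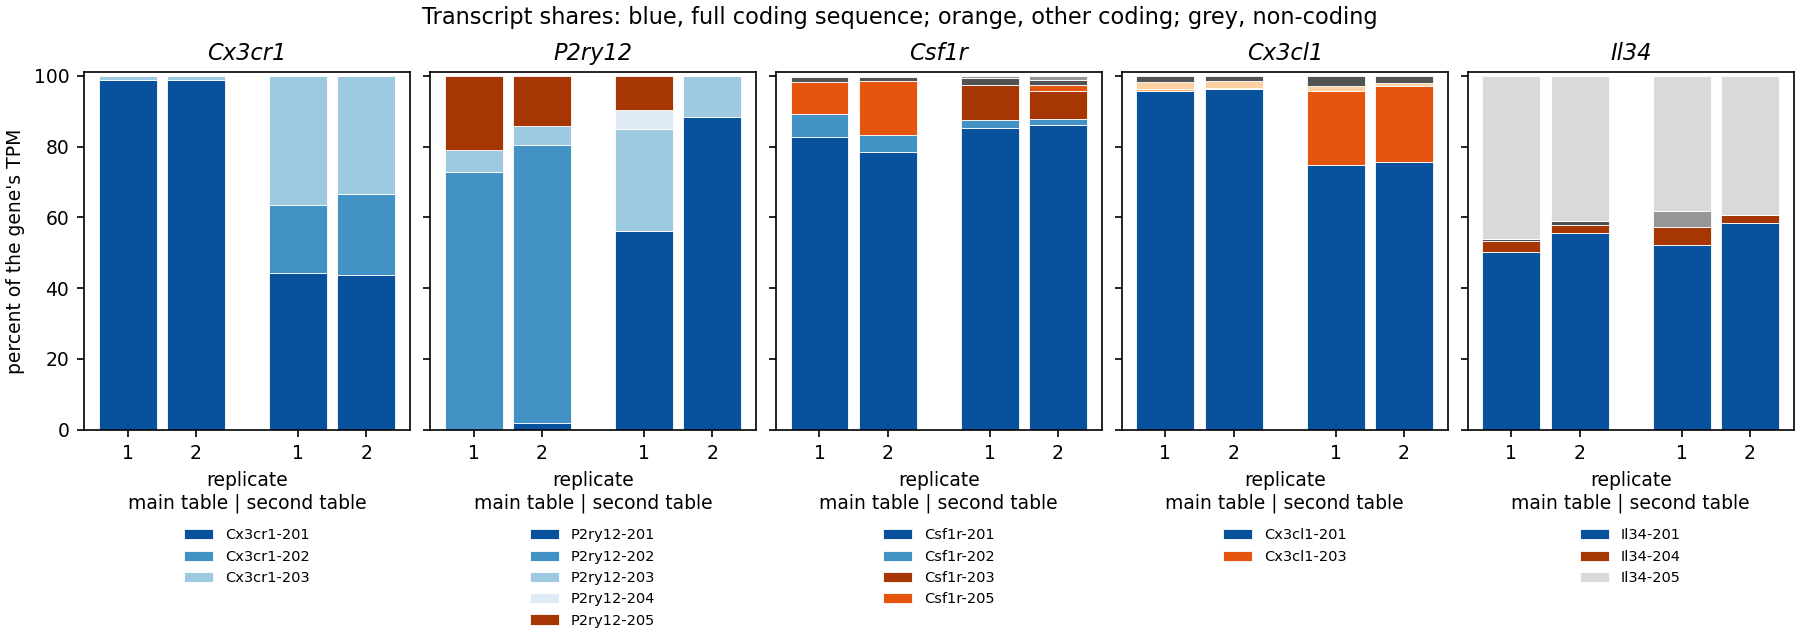
Share of each gene's TPM by transcript for the 5 members with divided assignment, with bars for replicates 1 and 2 of the main table and then of the second. Blue is the full principal coding sequence, orange another coding sequence and grey noncoding, and transcripts under 5% in every bar are drawn without a legend entry. Cx3cr1 is blue throughout because all its annotated transcripts carry that sequence, and its shades change between tables. Il34 is grey for 38.1% to 46.1% from Il34-205 alone.

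The libraries were then set against each other, 1 library against 1, with no replicate check. Counting intervals are exact 95% intervals of the expected counts, scaled to the TPM ratio, and cover counting error only. None of the 9 genes was at least 1.5-fold apart, compared with 3.88% of 12957 annotated genes with at least 200 counts over both libraries, and none was 1.2-fold apart on deposited TPM, compared with 21.8%. Of the 9, 5 were lower and 4 higher in replicate 2, with a median log2 ratio of -0.01 (all genes tested, -0.07). The interval left out 1 for 3 of the 9, against 48.6% of all genes tested. It lay below 1 for 2 members (background 37.4%) and above 1 for 1 member (background 11.2%). These shares do not set the members apart.

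Cx3cr1 had a ratio of replicate 2 to replicate 1 of 0.861 (0.798 to 0.93), and in the second quantification 0.909 (0.845 to 0.977). P2ry12 had a ratio of 0.862 (0.787 to 0.945), and 0.872 (0.797 to 0.954) in the second. The effective length that the main table gave P2ry12 was 1706 bases in replicate 1 and 1809 in replicate 2, and on TMM-scaled counts its log2 ratio was -0.04 against -0.21 on TPM. C1qb had a ratio of 1.13 (1.00 to 1.27), with 1.08 (0.952 to 1.22) in the second table, where the interval held 1. The other members had ratios between 0.938 for Il34 and 1.01 for Csf1r, with 1 inside each interval. In the second table the Cx3cl1 ratio was 1.02 (1.00033 to 1.04), an interval that left out 1 on the side opposite to the main ratio of 0.995.

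**Figure D4:**
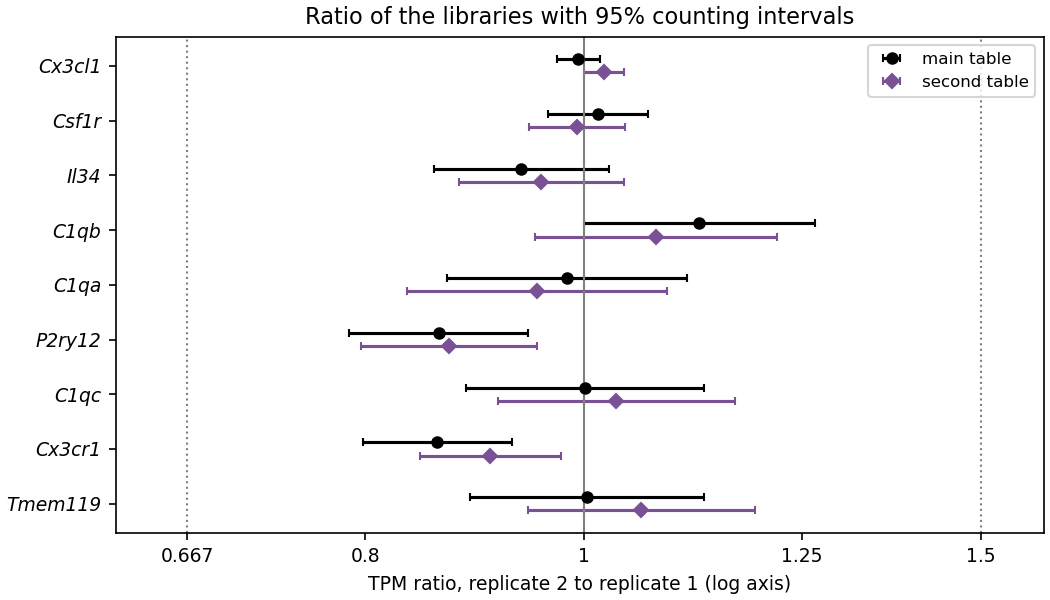
TPM ratio of replicate 2 to replicate 1 on a log axis with 95% counting intervals, as circles for the main table and diamonds for the second, a solid line at 1 and dotted lines at 1.5-fold. All points lie between the dotted lines, and the Cx3cr1 and P2ry12 intervals lie below 1 in both tables.

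The members stood high among microglial RNA. Of 24 other genes of homeostatic microglia, 23 reached 1 TPM in both libraries, with a median of 5.39 TPM against 20.1 over the 7 microglial members. Ctss, encoding cathepsin S, had 24.1 and 26.7 TPM, Laptm5 15.9 and 15.2, and Selplg 14.5 and 13.6. Csf1r was above 23 of the 24 in both libraries, and each C1q gene and P2ry12 was above 22. Cx3cr1 and Tmem119 were each above 17 of them in both libraries. Of the 21 with at least 200 counts, 13 were lower and 8 higher in replicate 2 (median log2 ratio -0.03), and 0 were 1.5-fold apart. Of all 12957 genes tested, 8410 were lower and 4492 higher (median -0.07), and 3.88% were 1.5-fold apart. These values do not set the list apart.

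RNA of other immune cells was low. Border macrophages, which line vessels and meninges, also express Csf1r, Cx3cr1 and C1q genes. Their 10 listed markers summed to 16.8 TPM in replicate 1 and 13.6 in replicate 2, and 3 of them reached 1 TPM in both libraries. Stab1 made up most of it at 10.1 and 7.12 TPM. Mrc1 had 1.88 and 1.49, F13a1 1.31 and 1.00, and Pf4 0.86 and 1.03, while Ms4a7 had 0.09 in both. The part of these cells in the levels of Csf1r, Cx3cr1 and C1q genes was not tested. None of 9 monocyte and neutrophil markers and none of 7 lymphocyte markers reached 1 TPM in both libraries, and they summed to 1.08 and 2.27 TPM and to 0.58 and 0.85 TPM. Ccr2 had 0.07 and 0.03 TPM, and Ly6c2, the highest of them, 0.69 and 1.81. Ly6g, Cd3g and Nkg7 were listed at 0 in both libraries.

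Genes raised in activated or disease-associated microglia were mostly near the detection limit. Of 14 listed, 2 reached 1 TPM in both libraries: Cd9 at 33.6 and 36.4 TPM and Lpl at 25.2 and 20.01. Both have other known sources in brain, Cd9 in oligodendrocytes and Lpl in neurons among others. Spp1 had 0.79 and 1.45 TPM and Gpnmb 0.93 and 0.86. Cst7 and Clec7a had 0.14 and 0.11 TPM and 0.07 and 0.06 TPM, and 5 of the 14 genes had fewer than 3 counts in both libraries, the floor used here.

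**Figure D5:**
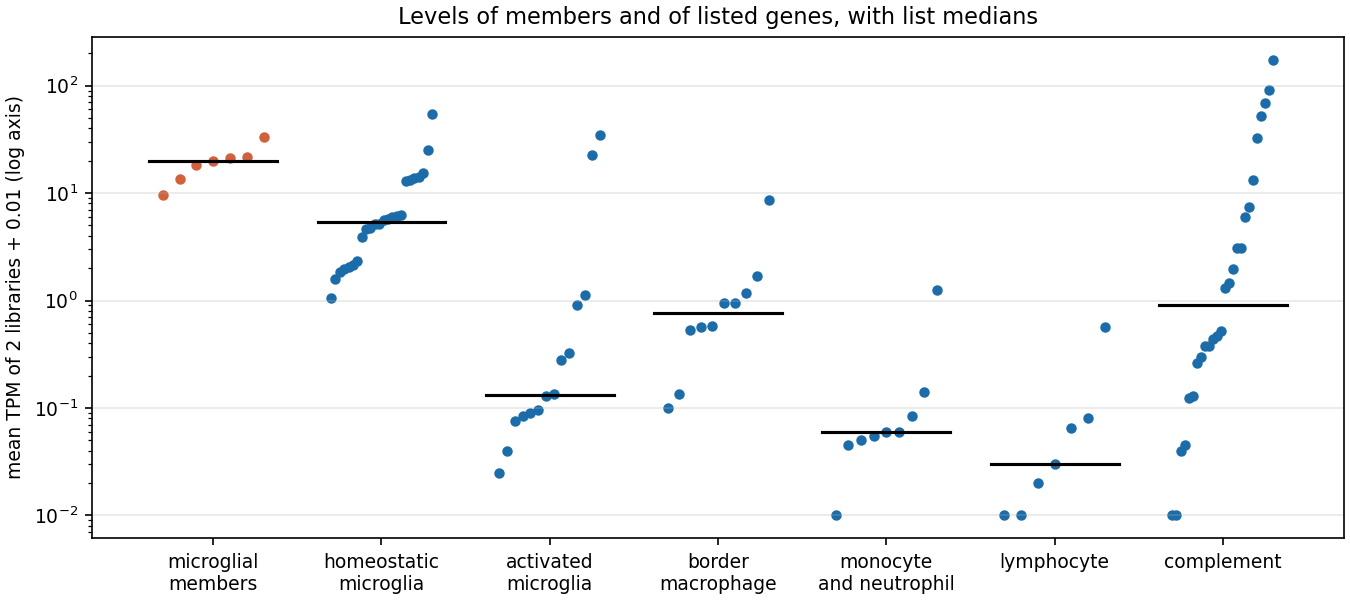
Mean TPM of 2 libraries plus 0.01, on a log axis, for the 7 microglial members and for 6 lists, 1 point for each gene and a bar for each list's median. The members lie between 9.68 and 33.6 TPM, and most monocyte, neutrophil, lymphocyte and activated-microglia genes lie under 1 TPM.

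Beside the fractalkine and IL-34 pairs, other signals between neurons and microglia were read from a list of 17 genes, of which 15 reached 1 TPM in both libraries. Cd47, a surface signal that restrains engulfment, had 91.5 and 88.2 TPM, and its receptor gene Sirpa, which neurons express as well, had 121 and 115. Cd200, a neuronal membrane ligand, had 30.3 and 36 TPM, while its receptor gene Cd200r1 had 0.10 and 0.03 TPM from 5 and 1 counts. Cx3cl1 was higher than every gene of this list in both libraries. For transforming growth factor beta, on which microglial identity is known to depend, Tgfb1 had 3.45 and 2.85 TPM, Tgfbr1 10.4 and 10.2, and Tgfbr2 4.54 and 4.23. The bridging ligand gene Gas6 had 34.0 and 38.4 TPM, and its receptor gene Axl 17.6 and 15.1. Mertk, the related receptor of the homeostatic list, had 12.99 and 13.6. Of the 15 genes of the list with at least 200 counts, 0 were 1.5-fold apart between the libraries. The share over all genes tested was 3.88%, so this does not set the list apart.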

How the data were processed

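Per library, the main deposited tables give expected counts and TPM of genes and of transcripts. The authors also deposited the percent of gene TPM that each transcript held. The columns have the RSEM format, and the tables were made from transcriptome alignments on mm10 with GENCODE M21, per the deposited notes. The second table, deposited by the authors in the kallisto format and made from reads, holds estimated counts and TPM per transcript, here summed per gene. For the aligner, versions and strand setting of the counting, information was not given in the sources used here. Rows that are not annotated genes (tRNA, spike-ins, phiX) took 0.455% and 0.496% of counts.

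The members and lists were chosen with earlier results of these data known. Genes were named by a rule: all members, and of each list the 4 of highest mean TPM, any with at least 200 counts and 1.5-fold apart, overlapping genes and all other neuron-microglia signals. C3, C1ra, C1rb, C1s1, C1s2, C4b, Ms4a7, Cst7, Clec7a, Mertk and the genes listed at 0 were named outside it, after their values were seen. Some listed genes are not reported here. Full-coding transcripts carry the coding sequence of the principal transcripts of the annotation.

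Ratios used deposited TPM, with Clopper-Pearson intervals of expected counts rounded to whole numbers and a floor of 3 counts per library. PCR reads without molecular identifiers are not independent molecules. The interval code was tested on simulated data. Alternatives were the second quantification, rescaling over nuclear protein-coding genes, TMM (edgeR 4.0.16), DESeq2 1.42.0 size factors, spike-in scaling, other folds and count minimums, and each replicate alone. Scaling ran in R 4.3.3. The other steps ran in Python 3.11.15 with scipy 1.17.1 for intervals, pandas 2.3.3 and numpy 2.4.6 for tables, and matplotlib 3.10.9 for plots.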

Additional observations from a re-analysis of the deposited data

How the results depend on the processing

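Of 143 recomputed values, 92 moved by less than the spread between replicates or their counting interval and 51 by more. No paired analysis was possible because the labels give a single group. Without replicate 1 or replicate 2, each value was by construction that of the other library, within 1 SD of the mean. These values are among the 92. So are the shares of C1qa and C1qb, which have 1 annotated transcript each. Counts of members apart at a fold of 2 or at lower count minimums were fixed as well. The 92 is therefore not a count of checks that could have failed.

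Levels differed between TPM scales. In the second quantification the mean TPM was 399 for Cx3cl1, 59.4 for Il34, 52.3 for Csf1r, 35.2 for C1qb, 32.5 for C1qa, 31.9 for C1qc, 26.6 for P2ry12, 21.3 for Cx3cr1 and 15.8 for Tmem119. Rescaled over nuclear protein-coding genes, the main table gave Cx3cl1 468, Csf1r 78.8, Il34 75.8, C1qb 51.3, C1qa 49.3, P2ry12 47.0, C1qc 42.9, Cx3cr1 31.9 and Tmem119 22.7. The second table, rescaled alike, gave Cx3cl1 541, Il34 80.5, Csf1r 70.9, C1qb 47.8, C1qa 44.0, C1qc 43.3, P2ry12 36.04, Cx3cr1 28.9 and Tmem119 21.4. On that common scale P2ry12 differed most between tables relative to its level, and the cause was not tested.

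Log2 ratios of the libraries moved beyond their intervals for Cx3cl1, to 0.0892 with TMM, 0.0890 with DESeq2 size factors, 0.0393 over coding genes, 0.0300 in the second table and -0.11 with spike-ins. Csf1r moved to -0.18 with spike-ins, Il34 to 0.0510 with TMM and 0.0508 with DESeq2 size factors, and P2ry12 to -0.0426 and -0.0428. No member reached a fold of 1.2 on deposited TPM, but with spike-ins Cx3cr1 was at -0.32 (main -0.22), past that fold. Annotated genes at least 1.5-fold apart numbered 503 of 12957 (3.88%). They numbered 2825 of 18447 (15.3%) with at least 20 counts and 4969 of 22965 (21.6%) with no count minimum. Of the 12957, 107 (0.826%) were apart at a fold of 2, and 2823 (21.8%) at a fold of 1.2.

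The ratio of Cx3cl1 to Cx3cr1 was 18.8 in the second table and 12.5 on counts. That of Il34 to Csf1r was 1.14 in the second table, 0.329 on counts, 0.591 on full-coding transcripts and 0.716 on those of the second table. Those last measures were chosen after seeing the data. In the second table the shares of the main table's leading transcripts were 43.9% for Cx3cr1-201, 75.2% for Cx3cl1-201, 85.7% for Csf1r-201 and 0% for P2ry12-202. The cause was not tested. At these depths a gene with under 3 counts in a library, such as Cd200r1 in replicate 2, cannot be told from absence.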
